A study of Mus musculus with 4 samples.

Results

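The genes described here encode proteins of synaptic vesicles and of the cycle by which vesicles dock, fuse and are taken up again. A list of 49 mouse genes was looked up by symbol in a table of 11747 genes or gene groups, and 43 of them had a row. Vamp7, Sv2b, Sv2c and Rims1 had none and are not analysed here, and Syt1 and Rims2 had rows without a symbol, which were found by RefSeq accession and are described apart from the 43. RNA was sequenced from 4 libraries of motor neurons made from mouse embryonic stem cells of the A172LoxP line, into which a transcription factor gene had been placed so that doxycycline switches it on. All cultures were embryoid bodies that received 0.5 µM all-trans retinoic acid and 1 µM of the hedgehog pathway agonist purmorphamine for 2 days. For the next 2 to 3 days, 2 libraries' cultures received vehicle (libraries 1 and 7, by their numbers in the table) and the other 2 received 2 µg/mL doxycycline (libraries 2 and 8). Every group therefore carried the transgene, and doxycycline itself differed between the groups together with the induced factor, so their effects cannot be told apart. Values are the authors' normalized read counts. Whether replicate libraries stem from independent cultures is not in the labels, so p-values reflect only how these libraries varied, a variation that could be technical.

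Neurotransmitter is stored in synaptic vesicles and released when a vesicle fuses with the presynaptic membrane. Fusion is driven by SNARE proteins, with a synaptobrevin (Vamp) on the vesicle pairing with a syntaxin and SNAP-25 on the plasma membrane, while synaptotagmins sense calcium and complexins clamp and promote the step. NSF and its SNAP adaptors then take the SNARE complex apart, and clathrin adaptors, dynamin, amphiphysin, endophilin and synaptojanin retrieve the membrane. Many of these proteins have a relative that serves membrane traffic in most cell types, so the list holds both neuronal and general genes.

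Several of the neuronal genes fell with doxycycline, and none of the general trafficking genes passed the main test. Of the 43 listed genes, 6 passed the limma test over all genes as lower, and none passed as higher. The 6 were Snap25, Syn1, Snap91, Cplx1, Amph and Sncg, at 13.95% of the members, where 1.79% of all genes in the table were called lower, 0.579% higher and 2.37% in either direction. Unadjusted p-values were below 0.05 for 24 members and for 21.1% of all genes. In 26 members both doxycycline libraries lay below both libraries without it, and in 4 they lay above, against 26.5% and 26.7% of all genes. The log2 change was below 0 in 33 members (49.4% of all genes), with a median of -0.22 against 0.00 over all genes, and ran from -1.10 to 1.35. A second fit paired libraries by their numbers, and 3508 of the 11747 genes passed in it. There 6 of the 18 general members were called lower and 2 higher, beside 19 lower and 1 higher of the 25 neuronal members. In RNA from whole cultures, fewer neurons and less of a transcript per neuron cannot be told apart.

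**Figure D1:**
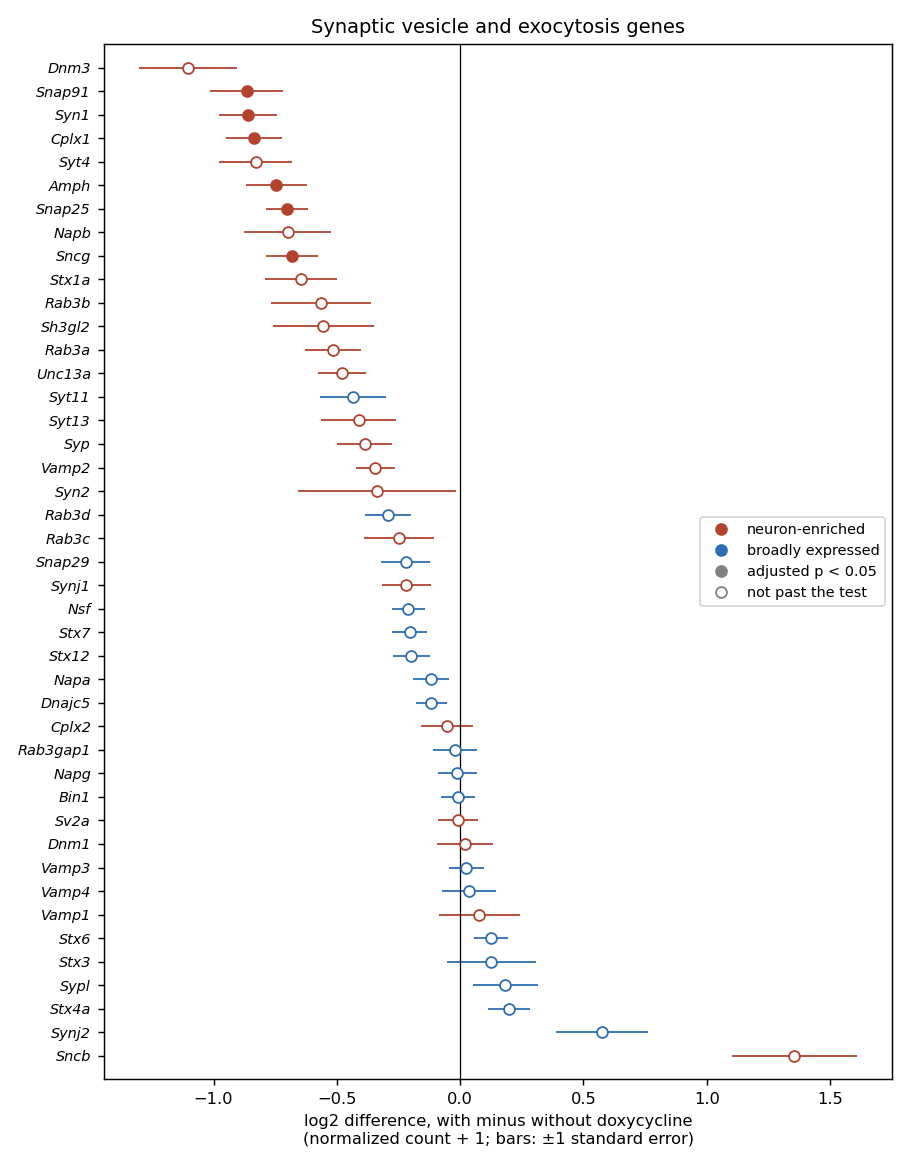
Log2 difference between libraries with and without doxycycline (x axis, normalized count + 1) for each of the 43 listed genes, with bars of 1 standard error. Filled points passed the limma test at an adjusted p below 0.05. The 6 filled points lie between -0.87 and -0.68, and Dnm3 at -1.10 and Sncb at 1.35 are the ends of the range without passing.

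Neuronal cytoskeleton and RNA-binding genes, which are not part of the vesicle list, were measured alongside. Of 17 such markers 16 were listed, and all 16 had both doxycycline libraries below both others (26.5% of all genes). Summed, they reached 218946 and 192704 normalized counts without doxycycline (libraries 1 and 7, in this order throughout) against 110467 and 89923 with it (libraries 2 and 8). Of the 16, 13 passed the test as lower (1.79% of all genes), and the median log2 change of the 16 was -0.86. All 9 motor neuron markers passed as lower (1.79% of all genes), with a median of -1.51, among them Isl1, Mnx1 and Chat. The 16 neural progenitor markers summed to 53392 and 54956 without and 55913 and 61055 with doxycycline. None of them passed, but 13 had values above 0, with a median of 0.23. In 11 of the 16 both doxycycline libraries lay above both others (26.7% of all genes). All 11 cycling cell markers had values above 0, where 49.4% of all genes had values below 0. In 9 of the 11 both doxycycline libraries lay above both others (26.7% of all genes), and none passed. Of 12 glial markers 6 were listed, and 2 of those rose, Slc1a3, a glutamate transporter gene of radial glia and astrocytes (0.52 ± 0.08; limma, adjusted p = 0.0413), and the lipoprotein gene Apoe (0.54 ± 0.08; limma, adjusted p = 0.0405). The other 4 did not pass, and 2 of the 6 had values below 0. Those were Mbp, at -0.51 ± 0.10 without overlap (limma, adjusted p = 0.0679), and Pdgfra, at -0.45 ± 0.42 with overlap. The summed glial level was 6380 and 8228 without and 6699 and 7855 with doxycycline. The part of these shifts in the vesicle gene results was not tested.

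The 43 genes summed to 73831 and 67961 normalized counts without and to 59103 and 56410 with doxycycline, so both doxycycline totals lay below both others. Library 7 was below library 1 and library 8 below library 2 in these totals. What the numbers mark is not stated in the labels. Endoderm and mesoderm markers, 12 of 16 listed, followed the same numbering, at 334567 in library 1 and 247845 in library 2, against 655944 in library 7 and 596630 in library 8. Compared within the lower numbers (2 against 1), the members' median log2 change was -0.25, and within the higher numbers (8 against 7) it was -0.20. The sign was the same in both for 35 of the 43 genes (81.4%), near the 73.7% of all genes in the table. Estimated reads per library ran from 53 for Syn2 to 10592 for Sncg, so counting error weighs most on Syn2, Sncb, Rab3b, Vamp1, Synj2 and Sh3gl2, the 6 genes with the lowest minimum.

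Among proteins of the vesicle itself, 1 of the 5 listed genes fell. Syn1 encodes synapsin-1, which tethers vesicles to each other and to actin. It was at 1460 and 1242 normalized counts without doxycycline and at 793 and 692 with it. Both doxycycline libraries lay well below both others, and the log2 change was -0.86 ± 0.12 (SE; limma, adjusted p = 0.0323). Syp, which encodes the vesicle membrane protein synaptophysin, stood at 1824 and 1635 without and 1444 and 1207 with doxycycline, or -0.39 ± 0.11 on the log2 scale, and was not called (limma, adjusted p = 0.139). Sv2a, a vesicle glycoprotein gene, was at 1112 and 1062 without and 1056 and 1104 with doxycycline, so its groups overlapped. Syn2, the second synapsin gene, also overlapped, at 117 and 76.2 without and 62.5 and 89.1 with doxycycline. Sypl, a relative of synaptophysin found in many tissues, was at 900 and 1128 without and 1074 and 1219 with doxycycline.

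The promoter of Syn1 is shown because this gene fell and because its window held 2 of the motifs searched. Promoter windows (250 bases before to 50 after a transcript start, RefSeq on GRCm38.p6) were found for 35 of the 43 genes. The stretch below covers the 250 bases before the Syn1 start, chrX:20920919-20921168, minus strand. Capitals mark TTCAGCACC, the left part of RE1 (the element bound by the repressor REST), and TGACGTCA, the cAMP response element.
Syn1: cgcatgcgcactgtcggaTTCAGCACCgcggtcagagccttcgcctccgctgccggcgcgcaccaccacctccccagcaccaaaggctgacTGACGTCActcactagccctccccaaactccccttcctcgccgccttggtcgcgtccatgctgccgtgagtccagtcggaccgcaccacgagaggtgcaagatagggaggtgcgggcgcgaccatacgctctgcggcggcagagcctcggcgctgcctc
The RE1 part began 232 bases and the cAMP response element 159 bases before the start.

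The same search was made over all members' windows, on both strands. It took exact letters only, so a part of RE1 with a changed letter was not counted, in Syn1 or elsewhere. TTCAGCACC was found in 2 of the 35 genes, Syn1 and Unc13a, and in 0.433% of all 27025 genes with a window. Unc13a also held an exact match to the right part of RE1, a motif of 10 letters. No other member held one, and 0.167% of all genes did. TGACGTCA was present in 3 members, Syn1, Sh3gl2 and Napa, against 2.03% of all genes. The other motif stretches are shown for Unc13a (chr8:71671726-71671755, minus strand, bases 3 to 32 after the start, both parts of RE1 in capitals on the opposite strand), for Sh3gl2 (chr4:85205408-85205437, plus strand) and for Napa (chr7:16098555-16098584, plus strand), each with the motif in capitals.
Unc13a: caGGCGCTGTCCgcgcccccGGTGCTGAAg
Sh3gl2: atcacccgcccTGACGTCAgggtgtctctc
Napa: tggggtggcaggcctgggTGACGTCAacgc
The homeodomain letters TAATTA were in none of the 35 (6.12% of all genes). CACGTG, the E-box, was in 4 (Stx6, Vamp4, Napa and Nsf; 8.09% of all genes). TATAAA, the TATA box, was in 2 (Rab3b and Stx3; 15.7% of all genes). Such a match is a description of the letters in the window. Of the 4 genes shown, Syn1 alone was called, and Sh3gl2 (-0.55 ± 0.21), Unc13a (-0.48 ± 0.10) and Napa (-0.12 ± 0.07) did not pass.

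None of the 3 listed synaptotagmin genes passed. Each had both doxycycline libraries below both others, as had 26.5% of all genes. Syt4, a synaptotagmin of neurons and endocrine cells that binds calcium weakly, was at 443 and 566 without and 276 and 288 with doxycycline, a value of -0.83 ± 0.15 that fell just short of a call (limma, adjusted p = 0.0548). Syt11, which does not act as a calcium sensor, was the most abundant of them, at 7027 and 5682 without and 5133 and 4253 with doxycycline (-0.44 ± 0.13; limma, adjusted p = 0.151). Syt13 was at 776 and 679 without and 622 and 478 with doxycycline (-0.41 ± 0.15). Syt1, the main calcium sensor of fast release, was found by accession. Its values of 1134 and 915 without and 955 and 849 with doxycycline overlapped (-0.18 ± 0.13).

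None of the 4 listed vesicle SNARE genes passed. Vamp2, the synaptobrevin of most synapses, was at 2542 and 2312 without and 1956 and 1866 with doxycycline, or -0.34 ± 0.08 on the log2 scale, and was not called (limma, adjusted p = 0.0892). Vamp1, used at spinal and neuromuscular synapses, was at 155 and 151 without and 153 and 170.2 with doxycycline. Vamp3, the cellubrevin of general recycling, and Vamp4, a SNARE of the trans-Golgi network, had values of 0.02 ± 0.07 and 0.04 ± 0.11. In these 3 genes the groups overlapped.

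Of the 8 SNAREs of the target membrane and of endosomes, 1 fell. Snap25, the plasma membrane partner of syntaxin-1, was at 1058 and 1007 without and 641 and 627 with doxycycline. Replicates lay close together on both sides, and the log2 change was -0.70 ± 0.08 (limma, adjusted p = 0.0243). Stx1a, the syntaxin that joins it at the synapse, was at 1634 and 1226 without and 934 and 876 with doxycycline. The groups did not overlap, but the wide gap between libraries 1 and 7 went with an SE of 0.14 on a value of -0.65, which did not pass (limma, adjusted p = 0.0848). Snap29, a general relative of SNAP-25, had a value of -0.22 ± 0.10. The endosomal syntaxins Stx7 and Stx12 had values of -0.21 ± 0.07 and -0.20 ± 0.07. Stx6 of the trans-Golgi network (0.13 ± 0.07), Stx4a of the plasma membrane (0.20 ± 0.09) and Stx3 (0.13 ± 0.18) lay above 0. In 5 of the 8 both doxycycline libraries lay below both others and in 2 above, against 26.5% and 26.7% of all genes. Only in Stx3 among the 8 did the groups overlap.

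The complexin genes had unequal values. Cplx1 was at 611 and 535 without and 316 and 324 with doxycycline, and it fell by 0.84 on the log2 scale (SE 0.12; limma, adjusted p = 0.0326). Cplx2, which encodes the close relative complexin-2, was at 1374 and 1221 without and 1335 and 1166 with doxycycline. Its groups overlapped, with a value of -0.05 ± 0.10, and the difference between the 2 genes was not tested. Unc13a encodes Munc13-1, which readies syntaxin for fusion, and stood at 3114 and 2675 without and 2167 and 1977 with doxycycline (-0.48 ± 0.10; limma, adjusted p = 0.0739). Rims2, an active-zone organizer found by accession, was at 1192 and 1115 without and 1048 and 954 with doxycycline (-0.21 ± 0.09).

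None of the 4 genes for SNARE disassembly passed. Napb, the SNAP adaptor of brain, was at 933 and 771 without and 610 and 447 with doxycycline, a value of -0.70 ± 0.18 (limma, adjusted p = 0.107). Nsf, the ATPase itself, was at 2622 and 2627 without and 2310 and 2229 with doxycycline (-0.21 ± 0.07). Napa (-0.12 ± 0.07) and Napg (-0.01 ± 0.08), the general adaptors, had values near 0, and the groups of Napg overlapped.

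The Rab3 genes encode small GTPases that mark vesicles for docking. All 5 genes of this group had values below 0 (49.4% of all genes) and none passed. Rab3a, the main form in neurons, was at 1862 and 1589 without and 1286 and 1124 with doxycycline (-0.52 ± 0.11; limma, adjusted p = 0.0830). Rab3b was at 209 and 180.4 without and 114 and 150.0 with doxycycline (-0.57 ± 0.20). Rab3d, the form of secretory cells outside the nervous system, had a value of -0.29 ± 0.09. Rab3c (-0.25 ± 0.14) and Rab3gap1 (-0.02 ± 0.09), a subunit of the Rab3 GTPase-activating complex, overlapped between groups.

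Of the 8 genes for vesicle retrieval, 2 fell. Snap91, the neuronal clathrin adaptor AP180, was at 2414 and 1949 without and 1329 and 1066 with doxycycline, a change of -0.87 ± 0.15 (limma, adjusted p = 0.0497). Amph, which encodes amphiphysin, the membrane-bending partner of dynamin, was at 1073 and 868 without and 580.05 and 571 with doxycycline (-0.75 ± 0.12; limma, adjusted p = 0.0465). In both genes every doxycycline library lay below both others, and in both the adjusted p was near the threshold. The dynamin genes had unequal values: Dnm3 was at 576 and 543 without and 317 and 213 with doxycycline (-1.10 ± 0.20; limma, adjusted p = 0.0553), while Dnm1 overlapped at 1874 and 2034 without and 1792 and 2186 with doxycycline. Sh3gl2, endophilin-A1, was at 265 and 195 without and 169 and 142 with doxycycline (-0.55 ± 0.21). Synj1, the synaptojanin of nerve terminals, had a value of -0.22 ± 0.10 and Bin1, the general relative of amphiphysin, one of -0.01 ± 0.07. Synj2, the more widely expressed synaptojanin, was higher in both doxycycline libraries, at 120 and 154 without and 199 and 206 with doxycycline (0.57 ± 0.19), but did not pass (limma, adjusted p = 0.165).

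The synuclein genes had values of opposite sign. Sncg, gamma-synuclein, was at 9466 and 8237 without and 5973 and 5072 with doxycycline, a change of -0.68 ± 0.11 (limma, adjusted p = 0.0430). Sncb, beta-synuclein, was at 62.6 and 96.6 without and 200.4 and 200.2 with doxycycline. Both doxycycline libraries were above both others, and the log2 value of 1.35 ± 0.25 did not pass (limma, adjusted p = 0.0607). These values rest on 70 and 90 estimated reads without and 170 and 227 with doxycycline. Dnajc5, the vesicle chaperone cysteine string protein, had a value of -0.12 ± 0.06.

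**Figure D2:**
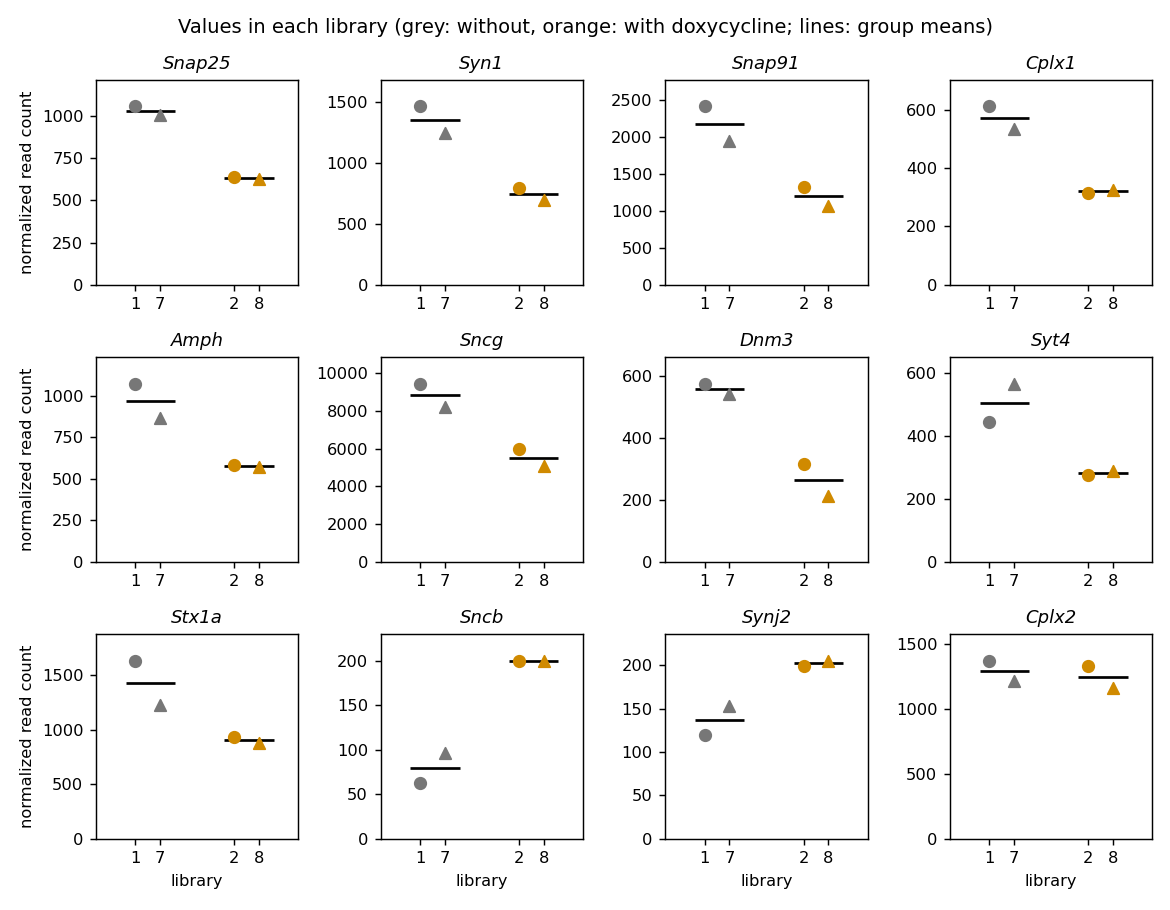
Normalized read counts (y axis, from 0) in each library for 12 genes, with circles for libraries 1 and 2, triangles for 7 and 8, and lines at the group means. In Snap25 the doxycycline libraries are at 641 and 627 and the others at 1058 and 1007, Sncb shows the opposite order, and in Cplx2 the groups overlap.

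The 6 calls depended on which libraries were used, and so did calls over all genes. Over all genes, fewer passed without library 1, 2 or 8 than in the full fit, and more passed without library 7. Without library 7 all 6 were still called, at adjusted p-values of 0.00953 to 0.0204 (limma). Without library 1, 2 or 8 none of the 6 was called, with adjusted p-values of 0.0520 to 0.0969, 0.0518 to 0.124 and 0.121 to 0.191 (limma). Their log2 changes stayed between -1.02 and -0.56 in these 4 fits. Each such fit has a lone library in 1 group, which is assumed to vary like the other group.

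Genes found mainly in neurons and genes found in most cells were set side by side, with the class taken from general knowledge. Of 25 neuron-enriched members 6 were called lower, the median log2 change was -0.52 and the quartiles were -0.70 and -0.25. Of 18 broadly expressed members none was called in either direction in the fit without a block, and the median was -0.02. An unadjusted p below 0.05 was found in 6 of the 18, against 21.1% of all genes. Summed levels of the neuron-enriched genes were 37460 and 32977 without and 26214 and 23892 with doxycycline. Those of the broadly expressed genes were 36371 and 34984 without and 32889 and 32518 with doxycycline. The broadly expressed sum was thus also lower in both doxycycline libraries. Its largest single part was Syt11. That of the neuron-enriched sum was Sncg, at 9466 and 8237 without and 5973 and 5072 with doxycycline. The difference between the classes was not tested, and Sv2a, Dnm1, Vamp1 and Cplx2, all neuron-enriched, had values within 0.1 of 0.

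Neuron-enriched genes were also set beside a broadly expressed relative. Both genes were listed in 8 of the 9 pairs chosen, and in all 8 the neuron-enriched gene had the lower log2 change. The pairs were chosen with earlier results of these data known, and not every pair of relatives has this order. Dnm1, counted as neuron-enriched, and its relative Dnm2, not among the 9 pairs, had values of 0.02 and -0.20. For Stx1a and Stx4a the values were -0.65 and 0.20, and the ratio of their normalized counts was 1.54 and 1.13 without and 0.796 and 0.675 with doxycycline. The ratio of Snap25 to Snap29 was 1.31 and 1.16 without and 0.843 and 0.925 with doxycycline. For Amph and Bin1 it was 0.403 and 0.338 without and 0.228 and 0.215 with doxycycline. Each ratio compares 1 pair across libraries and not the levels of its genes, whose lengths differ. In these 3 pairs both doxycycline ratios lay below both others.

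**Figure D3:**
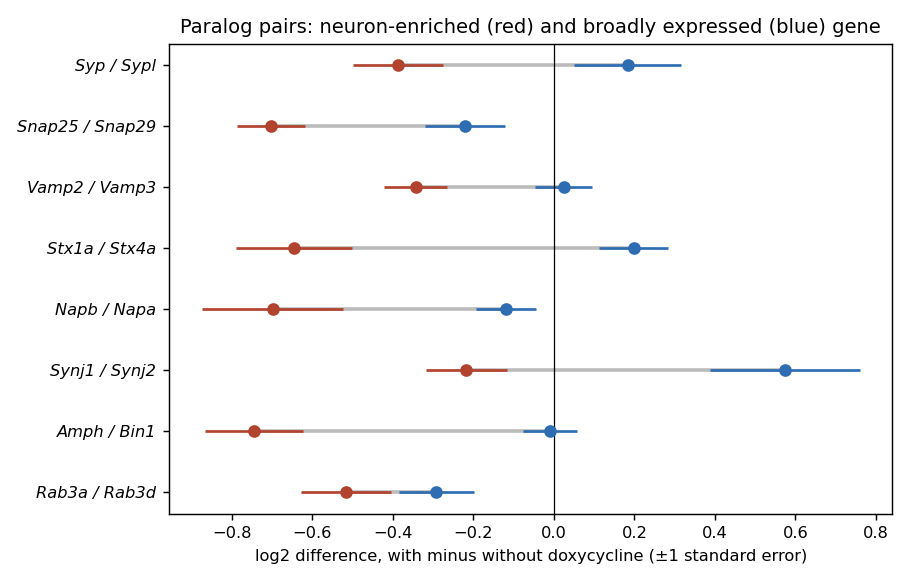
Log2 difference between libraries with and without doxycycline (x axis) for 8 paralog pairs, with the neuron-enriched gene in red, the broadly expressed gene in blue and bars of 1 standard error. The red point is to the left of the blue point in all 8 pairs, with the narrowest gap in Rab3a and Rab3d at -0.52 and -0.29.

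The wider presynaptic machinery was followed with 126 further symbols, of which 96 were listed. Of these, 6 were called lower (6.25%) and 1 higher (1.04%), against 1.79% and 0.579% of all genes. Values were below 0 in 69 (49.4% of all genes), with a median of -0.13. Slc18a3, the transporter that loads acetylcholine into vesicles, was at 2974 and 2866 without and 982 and 900 with doxycycline, a change of -1.63 ± 0.08 (limma, adjusted p = 0.00661). Among 15 listed active-zone scaffold genes 3 fell. Rimbp2, which links calcium channels to RIM proteins, changed by -1.32 ± 0.12, and the adaptor genes Apba1 and Apba2 by -1.10 ± 0.12 and -0.88 ± 0.11. Syt7, a slow calcium sensor, was at 2152 and 1806 without and 1025 and 1080 with doxycycline (-0.91 ± 0.10; limma, adjusted p = 0.0229). Ston2, an adaptor that sorts synaptotagmin during retrieval, changed by -0.64 ± 0.09. Syt6 rose, from 154 and 198 without to 355 and 402 with doxycycline (1.11 ± 0.17; limma, adjusted p = 0.0413).

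Other genes of this wider list did not pass. The large active-zone scaffold genes Bsn and Pclo had values of -0.55 ± 0.15 and -0.35 ± 0.14. None of the 22 further SNARE and syntaxin-binding genes was called. Unadjusted p-values were below 0.05 for 4 of those, against 21.1% of all genes. None of the 8 further Rab genes was called either. All 8 had values below 0 (49.4% of all genes), and 4 had an unadjusted p below 0.05 (21.1% of all genes). Of the 28 further clathrin and endocytosis genes Ston2 alone was called. Without library 8 the number of calls in the wider list was 1 lower and none higher, and without library 1 or 2 it was 6 or 4 lower and none higher.

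**Figure D4:**
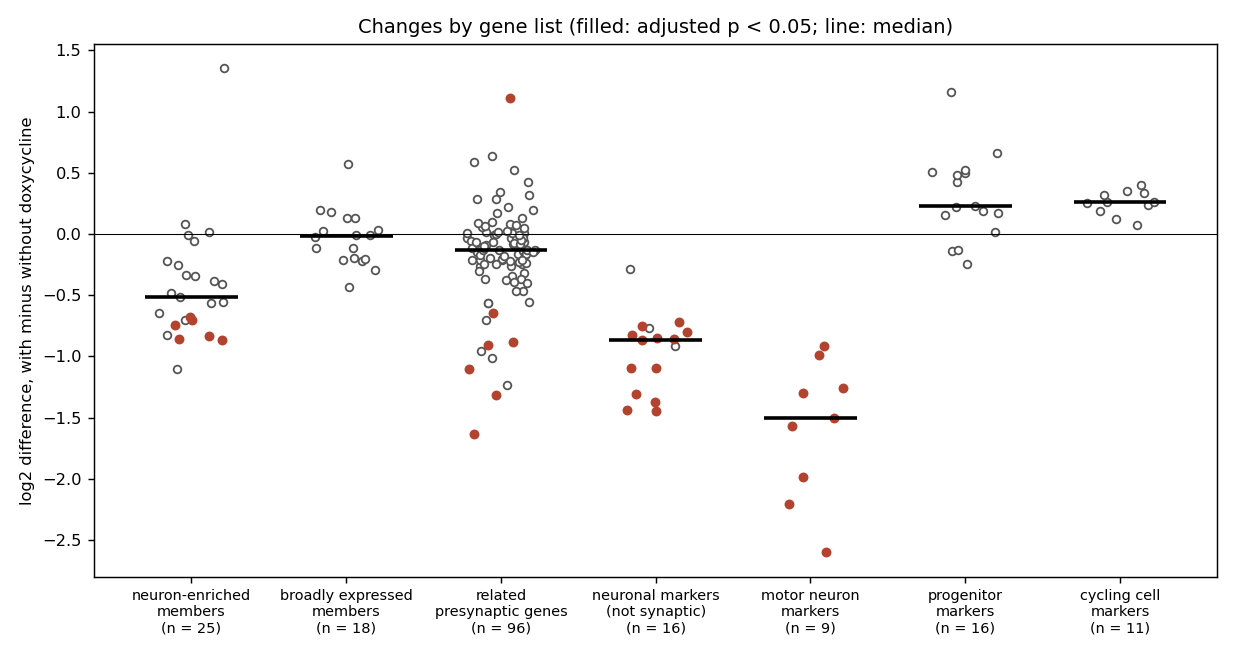
Log2 difference between libraries with and without doxycycline (y axis) for each listed gene of 7 lists, with filled points for genes past the limma test and a line at each median. The medians are -0.52 for neuron-enriched and -0.02 for broadly expressed members, -0.13 for related presynaptic genes, -0.86 for neuronal markers, -1.51 for motor neuron markers, 0.23 for progenitor markers and 0.26 for cycling cell markers.

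Levels were compared between genes only after division by transcript length, taking the longest GENCODE transcript that matches a row. On that scale Sncg was the highest of the 43 in every library, at 11110 and 9668 normalized counts per kilobase without and 7010 and 5953 with doxycycline. Napa came next by group mean in both groups, at 1582 without and 1456 with doxycycline. Rab3a ranked 4 of 43 without and 9 with doxycycline, and Syn1 18 and 26. Bin1 ranked 7 without and 3 with doxycycline at means of 1087 and 1081 per kilobase. The lowest without doxycycline were Synj2 at 24.1 and Syn2 at 25.1 per kilobase. Neighbours in this order often lay within each other's spread: Stx7, Vamp2 and Bin1 ranked 5, 6 and 7 without doxycycline, with 1144 and 1059, 1153 and 1048, and 1107 and 1067 per kilobase in libraries 1 and 7.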

How the data were processed

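RNA sequencing data of 4 libraries were used, 2 per group. Per the submitters' processing notes, the tools were CASAVA, TopHat2, HTSeq with DESeq, on build mm9, with no versions or roles. The deposited signal is a normalized read count per gene, made by the authors, as far as the values show, by dividing counts by 1 factor per library. In each library 100% of values under 120 lay within 0.1 of whole multiples of 1 step, which gave 22434754 to 30235761 estimated reads per library. Low values are too scarce to treat the multiples as exact counts, so the read numbers given here are estimates. Every row reaches at least 101 estimated reads in some library, so a gene without a row cannot be called absent. Column initials gave each library its group, and column numbers differ from the labels' replicate numbers.

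All 11747 rows were tested as log2(normalized count + 1), a scale that understates changes of low genes, with limma 3.58.1 (R 4.3.3), an intensity trend and two-sided p-values, adjusted by Benjamini-Hochberg over all rows at a threshold of 0.05. The planned minimum mean of 10 removed 0 rows. Degrees of freedom were 2 residual and 3.83 prior. For single genes, exact permutation of 2 against 2 libraries reaches p = 0.333 at best. The fit was also run on simulated libraries drawn independently of each other. That run cannot show its error rates where libraries deviate together by number, as these did. Other settings tried were a pseudocount of 0.5 or 5, no filter, a minimum mean of 50, quantile and TMM scaling, robust and untrended fits, a block, a minimum log2 change of 1, and leaving out each library. Members and lists were chosen with earlier results of these data known. The rule names every member with a row, and of the related genes those past the test. Bsn, Pclo and Dnm2 fall outside it and were named after their values were seen. Strandedness of the counting is not stated, so reads of overlapping or antisense genes may be mixed. Python 3.11.15, pandas 2.3.3, numpy 2.4.6 and matplotlib 3.10.9 were used. The induced gene and some related genes are not reported by name here.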

Additional observations from a re-analysis of the deposited data

How the results depend on the processing

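With 2 libraries per group, the count of calls depended on the spread model more than the log2 changes did. Over all genes 278 passed, against 419 with robust empirical Bayes, 105 without the intensity trend, 98 with a log2 change of at least 1, and 44 to 494 with a library left out. Among members, 6 were called lower, against 3 with quantile normalization, 1 without the trend, 0 with a log2 change of at least 1 and 0 to 12 with a library left out; robust empirical Bayes called 1 higher, and leaving out a library 0 to 1. Related genes called lower were 3 with a log2 change of at least 1 and 1 to 8 with a library left out, and those called higher were 0 without the trend and 0 to 1 with a library left out. The members' median was -0.22, and -0.30 to -0.15 with a library left out. With the column number as a replicate block, 3508 of 11747 genes passed, with 25 members lower and 3 higher. Broadly expressed members were then called too, 6 lower (Snap29, Syt11, Stx7, Stx12, Rab3d and Nsf) and 2 higher (Stx4a and Synj2), beside 19 neuron-enriched members lower and 1 higher. Under the block 37 related genes were lower and 9 higher. The block fit leaves fewer residual degrees of freedom than the main fit. Its p-values lean on the spread shared across genes, with an adjusted p of 3.6e-35 (limma) for Sncg. Libraries with the lower numbers deviated together from their group means (correlation 0.63 across genes), but no label says that a number marks a shared culture, and 2 pairs are too few to decide, so the block is not the main result.

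Sign changes were confined, in the settings run, to 9 members with values near 0. Bin1 was at 0.018 with quantile normalization. With a library left out, Vamp3 ran from -0.016 to 0.064, Vamp4 from -0.068 to 0.14, Stx3 from -0.10 to 0.36, Cplx2 from -0.15 to 0.043, Rab3gap1 from -0.10 to 0.056, Sv2a from -0.042 to 0.024, Napg from -0.044 to 0.021, Bin1 from -0.041 to 0.023 and Dnm1 from -0.12 to 0.16. Other pseudocounts and filters changed no call of a member.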
